A study of Mus musculus with 13 samples.

Results

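The genes described here are the interleukin-6 (IL-6) family cytokines *Il6*, *Osm* and *Lif*, their receptor chains *Il6st* and *Il6ra*, the transcription factor *Stat3*, and the feedback inhibitors *Socs1*, *Socs2*, *Socs3* and *Cish*. They were listed by name, 10 genes of 24445 in the table, and each was read from its RefSeq transcript with the highest total count. Counts of mRNA were measured by RNA-seq in bone marrow-derived macrophages (BMDMs), which were grown from bone marrow of female mice on a C57Bl/6J background for 7 days in medium conditioned by L929 fibroblasts. All cultures had received lipopolysaccharide (LPS), a component of the bacterial outer membrane, at 100 ng/mL for 3 or 24 h. Control macrophages (Acly fl/fl, labelled WT) carried a floxed *Acly* gene, whose product, ATP citrate lyase, makes cytosolic acetyl-CoA. AclyM-KO macrophages (labelled KO) carried the same floxed gene and Cre made from the *Lyz2* locus, which deletes the floxed exon in myeloid cells. There were 3 control and 3 AclyM-KO libraries at 3 h, and 4 control and 3 AclyM-KO libraries at 24 h. Nothing in the labels says that replicates came from separate mice, so p-values measure the spread between these libraries, which may be technical. The age of the mice is not given in the sources used here, and unstimulated macrophages were not analysed here.

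IL-6 binds its receptor chain IL-6Rα, and the complex recruits the shared signalling chain gp130, which *Il6st* encodes. Oncostatin M (*Osm*) and leukaemia inhibitory factor (*Lif*) also signal through gp130, each with a receptor chain of its own. Janus kinases bound to gp130 then phosphorylate STAT3, which enters the nucleus and switches on target genes, *Socs3* among them. SOCS3 binds gp130 and stops the signal, which makes it the main brake on IL-6 in macrophages. SOCS1, SOCS2 and CIS (*Cish*) are related inhibitors that act on other cytokine receptors as well. LPS induces *Il6* in macrophages through NF-kB and other factors at its promoter.

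*Il6* and *Socs3* lie at opposite ends of this loop, and their upstream sequences are shown, with capitals marking the motif matches. They are RefSeq sequences of the GRCm38.p6 build, 250 bases before the start site, written 5′ to 3′ along the gene. The *Il6* stretch is chr5:30012864-30013113 on the plus strand. The *Socs3* stretch is chr11:117969367-117969616 on the minus strand, and its end nearest the start site overlaps an exon of a GENCODE *Socs3* transcript with no annotated coding sequence.
Il6: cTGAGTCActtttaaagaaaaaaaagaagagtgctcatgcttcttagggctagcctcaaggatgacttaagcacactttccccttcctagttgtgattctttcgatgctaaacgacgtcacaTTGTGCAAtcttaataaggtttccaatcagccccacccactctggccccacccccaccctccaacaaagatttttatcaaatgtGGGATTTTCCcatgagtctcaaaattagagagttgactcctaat
Socs3: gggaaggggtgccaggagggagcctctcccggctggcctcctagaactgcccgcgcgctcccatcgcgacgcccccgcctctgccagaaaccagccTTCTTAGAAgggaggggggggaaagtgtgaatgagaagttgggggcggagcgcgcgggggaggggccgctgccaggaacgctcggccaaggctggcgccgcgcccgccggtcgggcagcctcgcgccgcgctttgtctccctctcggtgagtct
Motifs were searched on both strands for STAT (TTCNNNGAA), NF-kB (GGG and TTTCC with any 2 bases between), C/EBP (TTGCNNAA), AP-1 (TGANTCA), CRE (TGACGTCA) and the TATA box (TATAAA). The *Il6* stretch held the NF-kB letters 44 to 35 bases before the start site (GGGATTTTCC), the C/EBP letters 128 to 121 bases before it (TTGTGCAA, the motif read on the other strand), and the AP-1 letters 249 to 243 bases before it (TGAGTCA). The *Socs3* stretch held the STAT letters 154 to 146 bases before its start site (TTCTTAGAA). No match overlapped another. Of 32817 stretches of this length, 1.41% held the NF-kB letters, 9.57% those of C/EBP, 6.75% those of AP-1, 7.01% those of STAT, 1.55% those of CRE and 12.4% the TATA box. Of the 8 genes with an entry, *Lif* held only the AP-1 letters, 228 to 222 bases before its start site, and *Il6st*, *Il6ra*, *Stat3*, *Socs1* and *Cish* held no match. A match is a description of the letters and not of binding, which was not measured.

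Libraries held 21274102 to 59577343 counts, except control 24 h replicate 1 with 34467, where 1 count stands for 29.0 counts per 1000000 (CPM). That library was left out of the comparisons because it held under 1000000 counts. For each of the 9 genes that could be tested, the log2 fold change between the genotypes at 24 h is given again with all 13 libraries. With 34467 counts that library has little weight in a fold change. Agreement of fold changes between the fits of 12 and 13 libraries is therefore no support. Levels below are CPM after TMM normalization, and the tests are edgeR's quasi-likelihood test with adjustment over all transcripts. *Acly*, the targeted gene, lay at 105 to 107 CPM in control and 37.7 to 46.2 CPM in AclyM-KO libraries at 3 h, and at 107 to 113 and 29.0 to 30.5 CPM at 24 h. This count covers the whole transcript, exons outside the deleted one included. The 8 macrophage markers were detected in every group. Their summed level was 9338 to 9450 CPM in control and 6664 to 7207 CPM in AclyM-KO libraries at 3 h, and 5623 to 5940 and 4140 to 4238 CPM at 24 h. Without *Lyz2*, the locus that carries Cre, the sums were 4073 to 4232 and 4219 to 4392 CPM at 3 h, and 3235 to 3420 and 3196 to 3378 CPM at 24 h. The 5 mast cell markers summed to 2.33 to 2.94 CPM in control and 4.30 to 5.86 CPM in AclyM-KO libraries at 3 h, and to 0.748 to 0.860 and 1.09 to 1.35 CPM at 24 h. Without *Kit* they summed to at most 0.288 CPM at 3 h, with *Mcpt4* and *Tpsb2* at 0 in every group. The 5 dendritic cell markers summed to 1.54 to 1.78 and 1.89 to 2.69 CPM at 3 h, and to 0.382 to 0.574 and 0.563 to 0.788 CPM at 24 h. The 8 neutrophil markers summed to 12.6 to 14.3 and 11.8 to 15.3 CPM at 3 h, and to 3.44 to 4.70 and 3.74 to 4.47 CPM at 24 h, with *Ly6g* at 0 in every group. The 5 T cell markers summed to 8.72 to 9.07 CPM in control and 5.73 to 9.97 CPM in AclyM-KO libraries at 3 h. At 24 h these sums were 0.451 to 0.611 and 0.652 to 1.05 CPM, lower than at 3 h and with the genotypes apart. Only 1 of the 5 passed the filter on low counts, as in the mast cell, dendritic cell, B cell and fibroblast lists. The T cell sums may thus follow 1 gene. *Cd3d* was at 0 in control at 3 h, *Cd3e* and *Cd3g* in AclyM-KO at 3 h and *Cd3g* in control at 24 h. The 5 B cell markers summed to 0.648 to 0.844 and 0.577 to 1.05 CPM at 3 h, and to 0.298 to 0.860 and 0.460 to 0.563 CPM at 24 h. The 5 fibroblast markers summed to 0 to 0.347 and 0.0961 to 0.656 CPM at 3 h, and to 0.656 to 1.11 and 0.723 to 1.28 CPM at 24 h. The part of these values in the differences below was not tested. In bulk RNA, fewer cells of a type and less RNA per cell cannot be told apart.

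**Figure D1:**
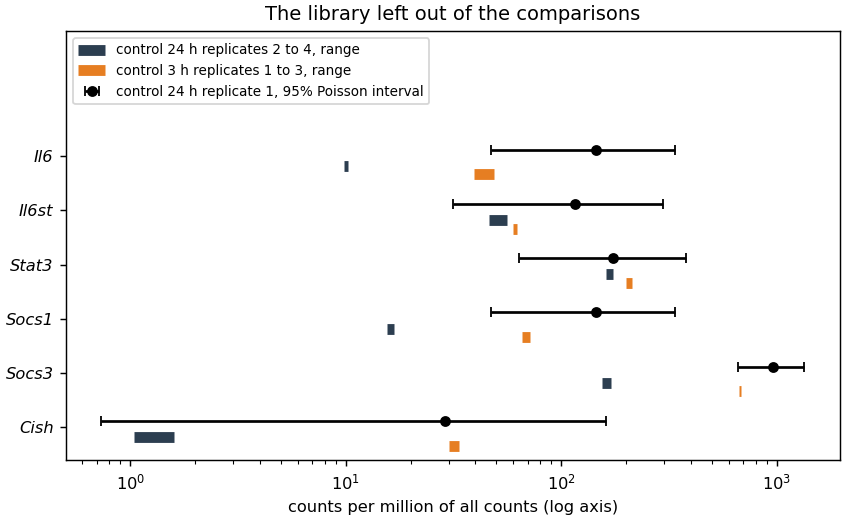
Level in the library left out, control 24 h replicate 1 (black points with 95% Poisson intervals, CPM without TMM on a log axis), beside the range of the other control libraries at 24 h (blue bars) and 3 h (orange bars), for the 6 members with any count there. *Il6* (145), *Socs1* (145) and *Socs3* (957) lie above all other control libraries at 24 h with their whole interval.

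Compared per length, as mean CPM per kb of transcript, *Socs3* had the highest level of the 10 genes in all 4 groups, at 291 in control and 327 in AclyM-KO macrophages at 3 h, and 58.0 and 85.8 at 24 h. In control macrophages at 3 h, *Il6* (42.3) and *Stat3* (37.3) came next with overlapping libraries, followed by *Socs1* (26.1), *Cish* (12.1) and *Il6st* (7.64). *Osm* (1.21) and *Il6ra* (0.944) overlapped, and *Socs2* (0.159) and *Lif* (0.0647) were lowest. In AclyM-KO macrophages at 3 h, *Il6* at 85.2 stood apart from *Socs1* (37.4) and *Stat3* (36.0), which overlapped. At 24 h *Stat3* was above *Il6* in both genotypes, at 25.0 against 7.96 in control and 30.2 against 21.2 in AclyM-KO macrophages. *Il6st* and *Socs1* were neighbours with overlapping libraries at that time, at 5.51 and 5.05 in control and 6.41 and 6.49 in AclyM-KO macrophages. *Cish*, the fifth in order at 3 h, was eighth at 24 h, at 0.397 and 0.578.

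**Figure D2:**
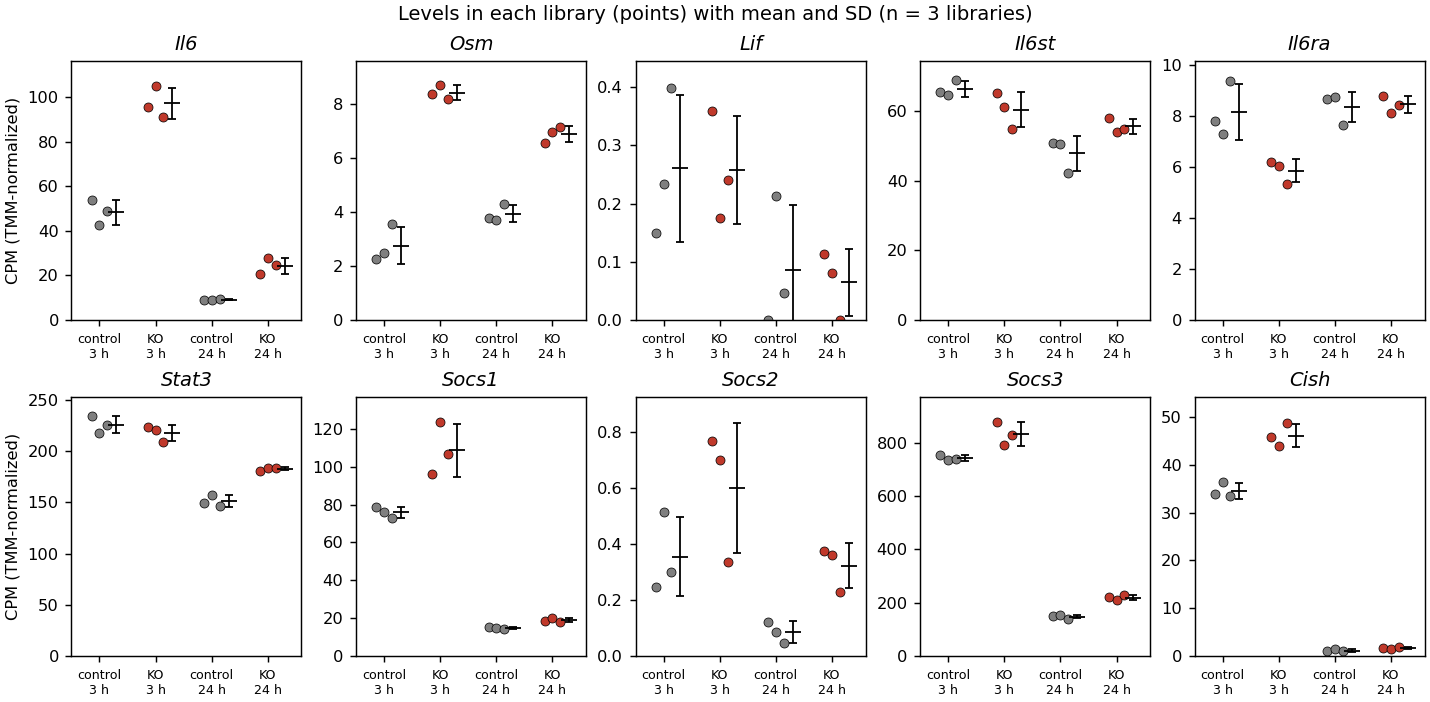
Level of each gene (vertical axis, TMM-normalized CPM, a scale of its own per panel, starting at 0) in the 3 libraries of each group used in the comparisons, control in grey and AclyM-KO in red, with the mean and SD beside them. For *Il6*, *Osm*, *Socs1*, *Socs3* and *Cish* the AclyM-KO points lie above all control points at both times. *Il6*, *Socs1*, *Socs3* and *Cish* stand far lower at 24 h than at 3 h. SD bars of *Lif* that reach below 0 are cut at the axis.

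The effect of *Acly* deletion was compared at each time. The 2 cytokines that could be tested, *Il6* and *Osm*, were higher in AclyM-KO macrophages at 3 and 24 h. A gene counted as changed when its adjusted p-value was under 0.05 and its log2 fold change above 0.75 or below -0.75, and by these criteria no member was lower. At 3 h 2 of the 9 members tested were changed, *Il6* and *Osm*, against 2.01% of all 11904 genes tested. At 24 h 3 of 9 were changed, *Il6*, *Osm* and *Socs2*, against 1.38% of all genes. By the adjusted p-value alone, 5 members were higher at 3 h (8.50% of all genes) and 1 was lower (6.91%), and 8 were higher at 24 h (8.32%). The median log2 fold change over the 9 members was 0.42 at 3 h and 0.57 at 24 h, beside -0.01 and 0.01 over all genes tested. 1 member, *Lif*, did not pass the filter on low counts. *Socs2* passed it through 2 AclyM-KO and 1 control library at 3 h.

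*Il6* (GRCm38, chr5:30013114-30019981) encodes IL-6 itself, a fever and acute-phase cytokine. After 3 h its level was 53.7, 42.6 and 48.7 CPM in control and 95.7, 105 and 91.2 CPM in AclyM-KO libraries. Every AclyM-KO library lay above every control library, a 2.01-fold difference (log2 fold change 1.01, SE 0.09, n = 3 and 3, adjusted p = 1.34e-07). After 24 h it was 8.89, 9.08 and 9.30 CPM in control (replicates 2, 3 and 4) and 20.5, 27.7 and 24.4 CPM in AclyM-KO libraries. The groups were again apart, by 2.65-fold (log2 fold change 1.41, SE 0.11, adjusted p = 2.07e-08). With all 13 libraries the log2 fold change at 24 h was 1.39. The difference between the times in this effect, 0.40 on the log2 scale (SE 0.14), did not pass the test (adjusted p = 0.0782), and it passed in 4 of 19 alternatives.

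*Osm* (chr11:4236420-4241026) encodes oncostatin M, a gp130 cytokine that macrophages and neutrophils release. At 3 h control libraries had 2.23, 2.48 and 3.54 CPM and AclyM-KO libraries 8.35, 8.70 and 8.17 CPM. The lowest AclyM-KO library stood well above the highest control library, and the difference of 3.06-fold (log2 fold change 1.61, SE 0.15, adjusted p = 4.48e-09) was the largest of the members at this time. At 24 h control libraries had 3.77, 3.71 and 4.29 CPM and AclyM-KO libraries 6.53, 6.95 and 7.13 CPM. The groups did not overlap, with a 1.72-fold difference (log2 fold change 0.78, SE 0.13, adjusted p = 6.75e-05, and 0.79 with all 13 libraries). Without control 24 h replicate 3 the log2 fold change was 0.747, under the limit of 0.75 for a changed gene. The effect was smaller at 24 h than at 3 h, by -0.83 on the log2 scale (SE 0.20, adjusted p = 0.00694).

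*Lif* (chr11:4257557-4272514) encodes leukaemia inhibitory factor. Its counts, not its CPM, were 3, 5 and 8 in control and 7, 4 and 5 in AclyM-KO libraries at 3 h, and 0, 5 and 3 against 3, 2 and 0 at 24 h. These overlapped at both times. The ratio of summed counts per library size, AclyM-KO to control, was 0.974 at 3 h (95% interval 0.456 to 2.08) and 0.913 at 24 h (0.235 to 3.17). Such intervals cover counting error only, and a difference within them was not detectable at this depth.

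The receptor chains differed less. *Il6st* (chr13:112464070-112510086), which encodes gp130, had 65.5, 64.5 and 68.8 CPM in control and 65.1, 61.3 and 54.9 CPM in AclyM-KO libraries at 3 h. These groups overlapped (log2 fold change -0.13, SE 0.07, adjusted p = 0.220). At 24 h it had 50.8, 50.5 and 42.1 CPM in control and 58.1, 53.9 and 54.9 CPM in AclyM-KO libraries. The AclyM-KO libraries lay above the controls, of which replicate 4 was the lowest (log2 fold change 0.23, SE 0.07, adjusted p = 0.0254, and 0.22 with all 13 libraries). Without that replicate the log2 fold change was 0.13 (adjusted p = 0.245, in a range of 0.0146 to 0.393 over the alternatives). The call was also lost without control 3 h replicate 1, AclyM-KO 24 h replicate 1 or AclyM-KO 24 h replicate 3, at 0.20 to 0.23, and with a replicate block (0.11).

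*Il6ra* (chr3:89864059-89913196) encodes the IL-6-binding chain and was the member that was lower at 3 h. Control libraries had 7.79, 7.30 and 9.37 CPM and AclyM-KO libraries 6.20, 6.03 and 5.33 CPM. The groups were apart, AclyM-KO macrophages having 71.9% of the control level (log2 fold change -0.48, SE 0.12, adjusted p = 0.00751). Without control 3 h replicate 3, the highest library, it was -0.36 (adjusted p = 0.0829, in a range of 0.00482 to 0.0829 over the alternatives). At 24 h the groups overlapped, at 8.65, 8.74 and 7.65 CPM in control and 8.78, 8.12 and 8.44 CPM in AclyM-KO libraries (log2 fold change 0.03, SE 0.11, adjusted p = 0.876, and 0.04 with all 13 libraries). A GENCODE antisense gene, *Gm42809*, overlaps *Il6ra* on the opposite strand over 281 bases of exon, and the strand setting of the counting is not stated.

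*Stat3* (chr11:100885098-100939540), the transcription factor of the pathway, did not pass the test at 3 h. Its level was 234, 217 and 225 CPM in control and 224, 221 and 209 CPM in AclyM-KO libraries. The groups overlapped (log2 fold change -0.05, SE 0.05, adjusted p = 0.546). At 24 h control libraries had 150, 157 and 146 CPM and AclyM-KO libraries 181, 183 and 184 CPM. All AclyM-KO libraries were higher, by 1.21-fold (log2 fold change 0.27, SE 0.05, adjusted p = 1.93e-04, and 0.28 with all 13 libraries), a difference under the limit for a changed gene. The effect at 24 h exceeded that at 3 h by 0.33 on the log2 scale (SE 0.07, adjusted p = 0.00235), a call kept in all 19 alternatives. *Stat3* and *Stat5a* overlap over 72 bases on opposite strands.

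Among the feedback inhibitors, *Socs3* (chr11:117966079-117970047) had the smallest adjusted p-value of the members at 24 h. At 3 h its level was 755, 735 and 739 CPM in control and 880, 792 and 830 CPM in AclyM-KO libraries. The groups were apart but close, 1.12-fold (log2 fold change 0.17, SE 0.05, adjusted p = 0.0214). At 24 h it was 150, 154 and 140 CPM in control and 220, 210 and 228 CPM in AclyM-KO libraries. The difference was 1.48-fold and larger than the spread in either group (log2 fold change 0.57, SE 0.05, adjusted p = 2.99e-09). The effect was larger at 24 h than at 3 h by 0.40 on the log2 scale (SE 0.07, adjusted p = 2.90e-04). All of these calls were lost in the fit of all 13 libraries. There the log2 fold change was 0.17 at 3 h (adjusted p = 0.561, in a range of 0.00275 to 0.561 over the alternatives), 0.52 at 24 h (0.0605, in a range of 1.66e-21 to 0.0605) and 0.36 for the interaction (0.391, in a range of 2.26e-05 to 0.391). The 3 h call was also lost without control replicate 2 or 3 or without AclyM-KO replicate 1 or 3 of that time, at 0.13 to 0.17.

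*Socs1* (chr16:10782240-10785536) encodes an inhibitor of Janus kinases best known for restraining interferon signals. At 3 h it had 78.8, 76.2 and 73.0 CPM in control and 96.0, 124 and 107 CPM in AclyM-KO libraries. All AclyM-KO libraries were higher, by 1.43-fold (log2 fold change 0.52, SE 0.07, adjusted p = 3.78e-06). At 24 h it had 15.1, 14.8 and 14.1 CPM in control and 18.3, 20.1 and 18.2 CPM in AclyM-KO libraries. The groups were apart by 1.29-fold (log2 fold change 0.37, SE 0.08, adjusted p = 0.00230, and 0.36 with all 13 libraries). The effects at the times differed by -0.15 (SE 0.11, adjusted p = 0.432).

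*Cish* (chr9:107296026-107302784) encodes CIS, an inhibitor known from STAT5 signalling. At 3 h it had 33.8, 36.4 and 33.4 CPM in control and 45.8, 44.0 and 48.7 CPM in AclyM-KO libraries. The groups did not overlap, and the difference was 1.34-fold (log2 fold change 0.42, SE 0.07, adjusted p = 1.80e-04). At 24 h it had fallen to 0.942, 1.45 and 1.01 CPM in control and 1.61, 1.49 and 1.84 CPM in AclyM-KO libraries. The lowest AclyM-KO library was just above the highest control library (log2 fold change 0.59, SE 0.18, adjusted p = 0.0248, and 0.58 with all 13 libraries). The 24 h call was lost when control replicate 2 or 4, or AclyM-KO replicate 1 or 3, was left out (0.47 to 0.61). It was also lost when 24 h libraries were fitted alone (0.57) and with a replicate block (0.48). *Cish* shares exon bases on the opposite strand with the pseudogene *Gm17040* (1167 bases) and the antisense gene *Gm17041* (1459 bases).

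*Socs2* (chr10:95385362-95417180), known as a brake on growth hormone signals, was near the detection limit. Its counts at 3 h were 5, 11 and 6 in control and 15, 16 and 7 in AclyM-KO libraries. The groups overlapped (ratio of summed counts per library size 1.68, 95% interval 0.970 to 2.99, edgeR adjusted p = 0.294). At 24 h the counts were 3, 2 and 3 in control and 10, 9 and 6 in AclyM-KO libraries. All AclyM-KO counts were higher, with a ratio of 4.57 (95% interval 2.00 to 11.7, edgeR adjusted p = 0.0153). Its fitted log2 fold change of 2.10 (SE 0.59, and 2.09 with all 13 libraries) rests on 8 and 25 counts, and the call was lost without control 24 h replicate 4, without AclyM-KO 24 h replicate 1 or without AclyM-KO 24 h replicate 2 (log2 fold changes of 1.57, 1.97 and 2.01). A fit with a replicate block lost the call as well (1.53).

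**Figure D3:**
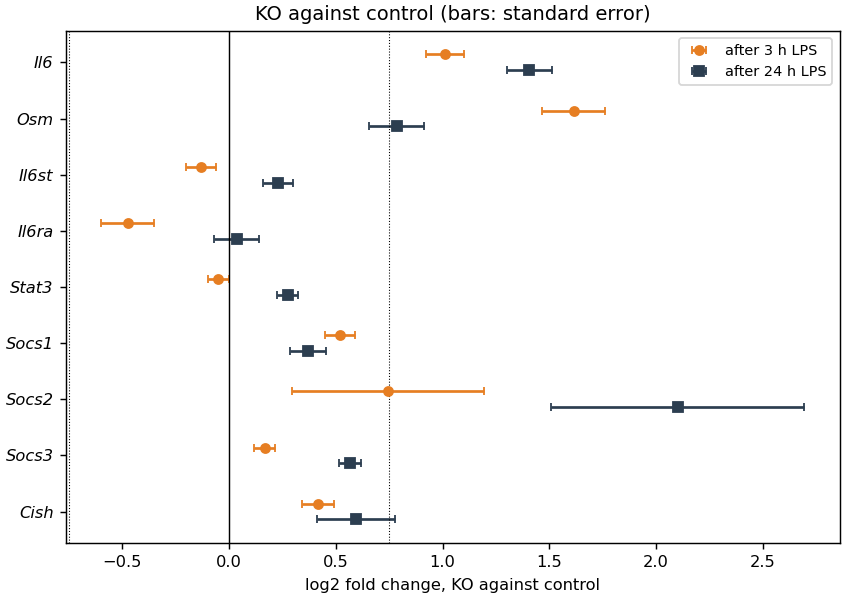
Log2 fold change of AclyM-KO against control (horizontal axis) for the 9 genes tested, after 3 h (circles) and 24 h LPS (squares), 3 libraries a group. Bars are standard errors and dotted lines mark 0.75 in either direction. *Il6* lies beyond the line at both times and *Osm* at 3 h, at 24 h *Osm* lies just past it at 0.78, and the bars of *Socs2* are the widest.

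The effect of the deletion differed between 3 and 24 h for 5 of the 9 members by the interaction term, against 9.53% of all genes tested. *Il6st* (0.36, SE 0.10, adjusted p = 0.0181), *Il6ra* (0.51, SE 0.16, adjusted p = 0.0426), *Stat3* and *Socs3* had a more positive effect at 24 h, and *Osm* a smaller one. The *Il6ra* call was lost in 12 of 19 alternatives, whose values were 0.39 to 0.54, and the *Il6st* call in 6 of 19, whose values were 0.24 to 0.35. For *Socs2* the interaction was 1.35 (SE 0.75, adjusted p = 0.283), and for *Cish* it was 0.18 (SE 0.19, adjusted p = 0.647).

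Between 3 and 24 h of LPS, most of the inhibitors and *Il6* declined in both genotypes. These comparisons use the same libraries as those above. In control macrophages 5 of the 9 members were changed, beside 40.4% of all genes tested, and in AclyM-KO macrophages 4 of 9, beside 41.9%. All of these members were lower at 24 h, *Il6*, *Socs1*, *Socs3* and *Cish* in both genotypes and *Socs2* in control, as were 2321 of the 4806 changed genes in control and 2383 of 4992 in AclyM-KO macrophages. *Socs2* entered the test only through libraries of 3 h, the time at which it is higher, so the filter favours a decline and its place in that count is no support for one. *Cish* fell most, to 3.17% of its 3 h level in control (log2 fold change -4.98, SE 0.11, adjusted p = 2.02e-26) and to 3.58% in AclyM-KO macrophages (-4.80, SE 0.11, adjusted p = 2.22e-26). *Il6* fell to 18.9% in control (-2.40, SE 0.10, adjusted p = 1.35e-14) and 24.9% in AclyM-KO macrophages (-2.01, SE 0.09, adjusted p = 4.84e-14). *Socs1* and *Socs3* passed the test in both genotypes as well. *Socs1* reached 19.2% in control and 17.3% in AclyM-KO macrophages, with log2 fold changes of -2.38 and -2.53 (SE 0.08 for both). *Socs3* reached 19.9% and 26.3%, with log2 fold changes of -2.33 and -1.93 (SE 0.05 for both).

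The other members moved less with time. *Stat3* was at 66.9% of its 3 h level in control (log2 fold change -0.58, SE 0.05, adjusted p = 5.74e-12) and 83.9% in AclyM-KO macrophages (-0.25, SE 0.05, adjusted p = 3.14e-05). *Il6st* was at 71.7% in control (-0.48, SE 0.07, adjusted p = 4.37e-07) and 92.1% in AclyM-KO macrophages, where it did not pass the test (adjusted p = 0.122). *Osm* went the other way in control macrophages, with 1.45 times its 3 h level (0.54, SE 0.16, adjusted p = 0.00269, and 0.76 without control 3 h replicate 3, past the limit for a changed gene), and had 81.7% of it in AclyM-KO macrophages (-0.29, SE 0.13, adjusted p = 0.0365). The call in AclyM-KO macrophages was lost in 5 of 19 alternatives, each without 1 AclyM-KO library (any except 24 h replicate 3), at -0.31 to -0.25. *Il6ra* was 1.44 times higher at 24 h in AclyM-KO macrophages (0.53, SE 0.12, adjusted p = 1.97e-04), and its difference in control was 0.02 (SE 0.11, adjusted p = 0.884). *Socs2* summed counts, scaled to library size, were 0.198 times those of 3 h in control (95% interval 0.0760 to 0.461) and 0.536 times in AclyM-KO macrophages (0.310 to 0.911). *Lif* was 0.272 times (0.101 to 0.673) and 0.255 times (0.0729 to 0.727) its 3 h level. With all 13 libraries the log2 fold changes in control were -4.97 for *Cish*, -2.39 for *Il6*, -2.37 for *Socs1*, -2.29 for *Socs3*, -0.58 for *Stat3*, -0.48 for *Il6st*, 0.54 for *Osm* and 0.02 for *Il6ra*, on the same side of the test.

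**Figure D4:**
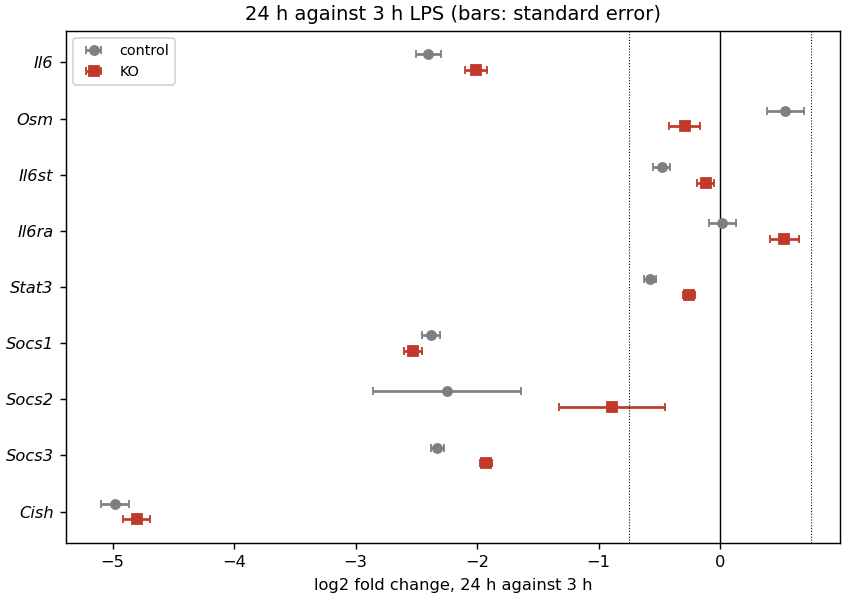
Log2 fold change of 24 h against 3 h LPS (horizontal axis) in control (circles) and AclyM-KO macrophages (squares) for the 9 genes tested, with standard errors; dotted lines mark 0.75 in either direction. *Cish* lies at -4.98 and -4.80, *Il6*, *Socs1* and *Socs3* lie between -2.53 and -1.93, and *Osm* lies on opposite sides of 0, at 0.54 in control and -0.29 in AclyM-KO macrophages.

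The other genes of the pathway were taken from 6 lists with 65 genes, of which 58 could be tested. At 3 h 0 of the 58 were changed, while by the adjusted p-value alone 11 were higher and 9 lower (edgeR, beside 8.50% and 6.91% of all genes tested), 24 had an unadjusted p under 0.05, and DESeq2 also called 0 changed. At 24 h 1 was changed, and 15 were higher and 3 lower by the adjusted p-value alone, beside 8.32% and 5.57% of all genes tested, so that the 3 lower are near the background. The median log2 fold change over the lists was 0.04 at 3 h and 0.08 at 24 h. An interaction with time passed for 12 of 58, beside 9.53% of all genes tested, 9 with a more positive and 3 with a more negative effect at 24 h. In the fit of all 13 libraries, *Stat2*, *Ptpn6*, *Il4ra* and *Nfkbiz* of these 12 lost that call.

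Of the other gp130 cytokines 3 of 8 could be tested. By the adjusted p-value alone (edgeR), 1 was higher and 0 lower at 3 h, and 2 were higher and 1 lower at 24 h. Of all genes tested 8.50% were higher and 6.91% lower at 3 h, and 8.32% and 5.57% at 24 h. Counts of 0 or 1 in so short a list say little beside that background. With the replicate block 0 were higher at 24 h. *Clcf1*, a cytokine that signals through gp130 and the LIF receptor, was the pathway gene changed at 24 h. Its counts were 4, 8 and 13 in control and 14, 11 and 17 in AclyM-KO libraries, whose depth differs. In CPM all AclyM-KO libraries were higher, 0.525, 0.442 and 0.652 against 0.164, 0.341 and 0.198. The ratio of summed counts per library size was 2.45 (95% interval 1.46 to 4.20), and the fitted log2 fold change was 1.26 (SE 0.42, adjusted p = 0.0398). The call was lost when control 24 h replicate 2 or 4, control 3 h replicate 2, or AclyM-KO 24 h replicate 1, 2 or 3 was left out, at log2 fold changes of 1.09 to 1.38. A replicate block lost it too (0.98). At 3 h the *Clcf1* log2 fold change was -0.65 (SE 0.30, adjusted p = 0.150), and the interaction was 1.92 (SE 0.51, adjusted p = 0.0155). The interaction call was lost without control 3 h replicate 1 (1.65), control 24 h replicate 4 (1.75) or AclyM-KO 24 h replicate 3 (1.76), and with the replicate block (1.62). *Il27* was higher in AclyM-KO macrophages at 3 h (0.32, SE 0.06, adjusted p = 2.63e-04) and 24 h (0.25, SE 0.07, adjusted p = 0.0185). *Ebi3* was at -0.09 at 3 h (SE 0.05, adjusted p = 0.270) and lower at 24 h (-0.19, SE 0.05, adjusted p = 0.0127). All of these were under the limit for a changed gene.

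Of 6 receptor chains and sheddases tested, none passed by the adjusted p-value at either time in edgeR or DESeq2, and 0 had an unadjusted p under 0.05, with log2 fold changes of -0.54 to 0.62 at 3 h and -0.45 to 0.03 at 24 h. Of 13 kinases, STATs and adaptors, 1 was higher and 5 were lower at 3 h by the adjusted p-value alone, and 2 were higher and 1 was lower at 24 h. Of all genes tested 8.50% were higher and 6.91% lower at 3 h, and 8.32% and 5.57% at 24 h. Counts of 0 or 1 in lists of this size are near that background. *Jak1*, a kinase that gp130 needs, was lower at 3 h, with a mean of 272 CPM in AclyM-KO against 333 CPM in control libraries (log2 fold change -0.30, SE 0.05, adjusted p = 1.75e-04), and at 24 h its log2 fold change was 0.15 (SE 0.05, adjusted p = 0.0600). *Jak2* was lower at 3 h (-0.16, SE 0.05, adjusted p = 0.0318) and higher at 24 h (0.26, SE 0.05, adjusted p = 7.26e-04). *Gab1*, an adaptor between gp130 and the ERK pathway, fell at 3 h from 11.2 to 6.81 CPM (-0.73, SE 0.13, adjusted p = 2.52e-04). Without control 3 h replicate 1 (-0.76) or AclyM-KO 3 h replicate 1 (-0.90) *Gab1* counted as changed. *Stat2* was lower at 3 h (-0.15, SE 0.05, adjusted p = 0.0307). Interactions of *Jak1* (0.44), *Jak2* (0.43), *Gab1* (0.91) and *Stat2* (0.22) passed, with a more positive effect at 24 h. That of *Stat2* was lost when any 1 of 8 libraries was left out, at 0.17 to 0.23.

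Of 10 further inhibitors, 1 was lower at 3 h, and 2 were higher and 1 was lower at 24 h by the adjusted p-value alone. The shares of all genes beside this list and the next were 8.50% higher and 6.91% lower at 3 h, and 8.32% and 5.57% at 24 h. Counts of 0 or 1 in these lists are near that background. *Ptpn1*, a phosphatase of Janus kinases, was the one that was lower at 3 h, at 96.8 against 147 CPM (log2 fold change -0.60, SE 0.07, adjusted p = 3.78e-06, interaction 0.47). *Ptpn6*, the phosphatase SHP-1, was lower at 24 h, at 207 against 244 CPM (-0.24, SE 0.05, adjusted p = 7.26e-04, interaction -0.32). Of 18 genes known as STAT3 targets, 5 were higher and 3 lower at 3 h by the adjusted p-value alone, and 5 were higher and 0 lower at 24 h (edgeR, with 1 lower at an unadjusted p under 0.05 and 0 in DESeq2), with medians of 0.07 at both times. *Il1rn*, the IL-1 receptor antagonist, was higher at 24 h, at 715, 729 and 821 CPM in AclyM-KO against 451, 499 and 472 CPM in control libraries. These groups were apart (0.67, SE 0.05, adjusted p = 1.79e-10), while at 3 h *Il1rn* was lower (-0.16, SE 0.05, adjusted p = 0.0401). *Il4ra* (-0.52, SE 0.09, adjusted p = 0.00146) and *Vegfa* (-0.66, SE 0.10, adjusted p = 3.29e-05) were lower at 3 h, and the survival gene *Bcl2l1* was higher (0.40, SE 0.06, adjusted p = 3.52e-05). The interactions of *Il1rn* (0.83), *Il4ra* (0.73), *Vegfa* (0.46) and *Bcl2l1* (-0.30) passed. The call of *Bcl2l1* was lost when any 1 of 7 libraries was left out, at -0.30 to -0.25, and that of *Vegfa* without control 3 h replicate 2 (0.32) or AclyM-KO 3 h replicate 3 (0.37).

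The last list held 8 regulators of *Il6* transcription and mRNA, of which 4 were higher by the adjusted p-value alone at 3 h and 4 at 24 h, and 0 were lower at either time in edgeR or DESeq2, or at an unadjusted p under 0.05. Beside these stand 8.50% of all genes higher and 6.91% lower at 3 h, and 8.32% and 5.57% at 24 h, so 0 lower of 8 is near the background. The list's medians were 0.24 at 3 h and 0.29 at 24 h. The list was not split by whether a gene raises or lowers *Il6*. Its counts and medians therefore give no direction for *Il6*. The gene named next is the 1 of the list with an interaction. *Nfkbiz*, which encodes the NF-kB cofactor IκBζ needed for *Il6* induction, had 329, 312 and 317 CPM in control and 484, 441 and 453 CPM in AclyM-KO libraries at 3 h. All AclyM-KO libraries were higher (log2 fold change 0.52, SE 0.05, adjusted p = 3.55e-08). At 24 h the groups of *Nfkbiz* overlapped (0.11, SE 0.06, adjusted p = 0.236, interaction -0.41).

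**Figure D5:**
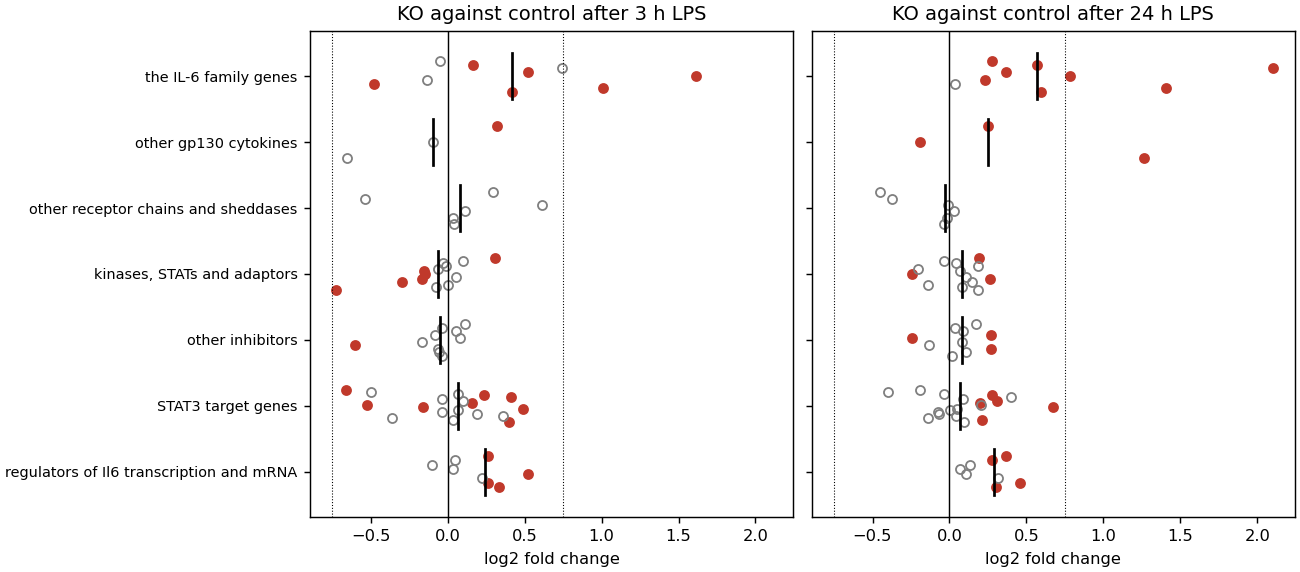
Log2 fold change of AclyM-KO against control (horizontal axes) after 3 h (left) and 24 h LPS (right) for the members and the 6 pathway lists (rows). Each point is a gene, filled red at an adjusted p-value under 0.05 and open grey otherwise, the black bar is the list's median, and dotted lines mark 0.75. Members lie beyond the line at 3 h (*Il6*, *Osm*) and 24 h (*Il6*, *Osm*, *Socs2*), and of the lists' genes only *Clcf1* at 24 h does.

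The genes most like *Il6* over the 12 libraries, by Pearson correlation of log2 CPM among 10575 genes, were *Irf5* (0.988), *Rgs16* (0.986), *Fzd5* (0.985), *Dcbld2* (0.984) and *Ch25h* (0.983). Those most like *Osm* were *Adamtsl5* (0.949), *Gas2l3* (0.920), *Slc38a2* (0.916), *Dusp1* (0.901) and *Bambi* (0.893). Those most like *Socs3* were *Cdkn1a* and *Tnfrsf1a* (both 0.998), *Src* (0.998), *Furin* (0.997) and *Prr5l* (0.997). The 12 libraries fall into 4 groups, so these values mainly follow the group means. Within groups the correlations were -0.16 to 0.56 for *Il6*, -0.0045 to 0.67 for *Osm* and 0.03 to 0.65 for *Socs3*.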

How the data were processed

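The authors prepared mRNA libraries that keep the strand, aligned reads to mm10 with STAR 2.5.2b after CASAVA 1.8.2, and counted tags per RefSeq transcript with HOMER. The strand setting of the counting is not given in the sources used here. The deposited values are these raw counts for 35745 transcripts. Symbols came from a RefSeq gene table (35440 transcripts) and GENCODE (35628 in all), and the 117 unnamed transcripts held 1.13% of counts. Counts were normalized by TMM, filtered with filterByExpr on 4 groups (19621 transcripts of 11904 genes) and fitted with robust quasi-likelihood models in edgeR 4.0.16 (R 4.3.3), adjusting p-values over all transcripts tested by Benjamini and Hochberg's method. An interaction needed an adjusted p-value under 0.05 only. Lengths per kb are of GENCODE transcripts. The steps were tested on simulated data. Alternatives were all 13 libraries, DESeq2 1.42.0, its size factors, other filters and thresholds, a replicate block and leaving out each library. Pathway genes are named where they were changed or had an interaction, and *Il27* and *Ebi3* as the other gp130 cytokines tested. For *Il6*, *Osm* and *Socs3* the 5 most alike genes with a mean of at least 1 CPM are named. The members, lists and the left-out library were chosen with earlier results of these data known.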

Additional observations from a re-analysis of the deposited data

Results flagged for a closer look

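Control 24 h replicate 1, the library of 34467 counts, stood apart from the other control 24 h libraries. Its distance to the nearest of them, as a share of the range of all 4 in CPM without TMM, was 0.997 for *Il6*, 0.991 for *Socs1*, 0.981 for *Socs3*, 0.98 for *Cish*, 0.873 for *Il6ra*, 0.867 for *Osm* and 0.86 for *Il6st*, each above the Dixon limit for 4 samples. Chance gives about 1 such flag in 20 groups of like depth, a rate that does not hold here, where 1 count is 29.0 CPM. For *Osm* and *Il6ra* (0 counts) and for *Il6* and *Socs1* (5 counts each) the library would stand apart from the other controls' levels at any count. For *Cish* (1 count) it would at any count above 0. The levels of these 5 genes in the other 24 h controls were 1.04 to 16.7 CPM. Their flags therefore say nothing of the level, and only the intervals below do. A count of 0 allows up to 87.0 CPM by the floor of 3 counts, and up to 107 CPM by the 2-sided 95% Poisson interval used for the other genes. *Il6st* had 4 counts, or 116 CPM, with an interval (31.6 to 297 CPM) that contains the other 24 h controls (46.3 to 56.1 CPM). *Il6* had 5 counts there, or 145.1 CPM (95% Poisson interval 47.1 to 339), against 9.82 to 10.2 CPM in the other 24 h controls and 39.3 to 48.7 CPM in the 3 h controls. *Socs1*, also with 5 counts, was at 145.1 CPM (47.1 to 339), against 15.5 to 16.7 and 65.8 to 71.5 CPM. *Socs3* had 33 counts, or 957.4 CPM (659 to 1345), against 154 to 170 and 666 to 685 CPM. The intervals of *Il6* and *Socs1* lay above the other 24 h controls and reached the 3 h controls' range, and that of *Socs3* contained it. *Cish*, with 1 count, had an interval (0.735 to 162 CPM) that spans both times. What sets this library apart was not tested.

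The effect of *Acly* deletion differed between the times by the interaction test for *Osm* (-0.8292 on the log2 scale, 24 h minus 3 h), *Il6st* (0.3611), *Il6ra* (0.5105), *Stat3* (0.3259) and *Socs3* (0.4001). Of these, the *Stat3* call held under all alternatives run, and the others were lost under at least 1.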

How the results depend on the processing

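The 9 members' differences gave 45 results, recomputed 867 times, of which 827 kept their direction and their call, 25 lost a call, 7 gained one and 8 changed sign. A call in this tally is a changed gene, by both criteria, or an interaction. Where the fold was under the limit, a loss of the adjusted p-value alone counts as kept. Thus *Cish* at 24 h is kept in all 20 of its alternatives, while its adjusted p-value was under 0.05 in 14. All sign changes were of *Il6ra* differences near 0. At 24 h its log2 fold change was -0.0537 with the replicate block and -0.0416 to 0.0679 when 1 library was left out. Its change with time in control macrophages was -0.0066 with DESeq2's size factors, -0.0034 with DESeq2 and -0.0464 to 0.139 when 1 library was left out. By the adjusted p-value alone, counts of changed genes rose to 6 members, 20 pathway genes and 1835 genes at 3 h, and to 8, 18 and 1653 at 24 h. With time they rose to 8 members and 8921 genes in control and to 7 and 9009 in AclyM-KO macrophages. With a log2 limit of 1, 144 genes were changed at 3 h and 70 at 24 h. Leaving out 1 library gave 0 to 1 changed pathway genes at either time and 3 to 6 members with an interaction. At 24 h 0 pathway genes were changed with at least 10 counts in every library, since *Clcf1* is then not tested, and 0 with the replicate block (edgeR), where 24 of 58 had an unadjusted p under 0.05. Same-numbered libraries did not deviate together (every correlation at most 0.0545), so the numbers were not taken as pairs. These are the numbers of the sample titles. The deposited column names number the control 24 h libraries in another order, with replicate 4 first. Control 3 h replicate 1 and control 24 h replicate 4, which differ in number, had a correlation of 0.0701. Pairing by the column names was not tested. Replicate number 4 occurs only in control 24 h, so in the replicate block that library has a term of its own and adds nothing to the group means. With the block 2 members kept an interaction and 2 were changed at 24 h. The 24 h log2 fold changes of *Socs2*, *Il6st* and *Cish*, whose calls were lost, were 1.53, 0.11 and 0.48. Without control 24 h replicate 4, and with no block, they were 1.57, 0.13 and 0.47. With the block the change of *Osm* with time in control macrophages was 0.41 (adjusted p = 0.0528 in edgeR, in a range of 2.22e-04 to 0.0528 over its alternatives). What else moved these values was not tested. *Lif* and *Socs2* are limited by depth, with at most 8 and 16 counts in a library.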
